A study of Mus musculus with 34 samples.

Results

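Loss of the transcription factor Rfx2 was set against loss of its relative Rfx3 in cultured mouse ependymal cells, by asking for each gene whether the change in Rfx2 knockouts differed from the change in Rfx3 knockouts. All 26 samples of the Rfx2 and Rfx3 lines, out of 34 in the series, were taken by the line named in their titles: 6 Rfx2-/- and 8 wild-type samples, and 6 Rfx3-/- and 6 wild-type samples. Every sample came from lateral ventricular walls of embryos at E18.5, grown to confluency and then kept 4 days without serum so that the cells differentiated, and was measured by bulk RNA sequencing. Wild types were the +/+ siblings of each line, so the lines share no control samples. The labels give C57BL/6 for every group, and OF1 stands in all titles without further word. Both alleles are labelled as lost in the whole embryo, so cells that never become ependymal also lack the factor. In RNA from whole cultures, fewer cells of a type and less RNA per cell cannot be told apart.

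RFX factors are winged-helix proteins that bind the X-box, an imperfect inverted repeat of the half-site GTTGCC found in promoters of many ciliary genes. They can bind it as homodimers or heterodimers, so that members of the family may serve the same promoters. Ependymal cells line the brain ventricles and carry tufts of motile cilia, whose basal bodies are aligned within the plane of the tissue by planar polarity proteins. Foxj1, Mcidas and Ccno act upstream in the program that makes these cilia.

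Total counts ran from 27.4 to 33.4 M in Rfx2 knockouts, 29.1 to 40.1 M in their wild types, 23.1 to 43.1 M in Rfx3 knockouts and 24.7 to 53.4 M in their wild types. All 23 tested ependymal markers outside the axoneme were detected in every wild type, and their summed level ran from 10520 to 13170 CPM, counts scaled to the effective size of each library, in Rfx2 wild types and from 10910 to 13250 CPM in Rfx3 wild types. Vim, with at least 139843 counts in every library, weighs most in those sums. Gene by gene the markers were lower in Rfx2 wild types, with a median log2 difference of -0.47. Their mean log2 CPM ran from 5.91 to 6.91 there and from 6.68 to 7.23 in Rfx3 wild types. The wild types of the lines differed from each other in 6811 of 14668 genes tested (46.4%), and ribosomal protein genes had a median log2 difference of -2.27 between them. For this reason each knockout is read only against its own wild types. Libraries Rfx2_WT 1 and 5 were low in ciliary genes among their wild types, Rfx3_KO 3 was high in ribosomal protein genes, and Rfx3_WT 6 was high in oligodendrocyte, microglial and astrocyte markers (1.99, 1.91 and 0.84 above the wild-type mean of its line on the log2 scale). Oligodendrocyte markers were also high in Rfx2_KO 1 to 3 and Rfx2_WT 1 and 2, with values given beside the ciliary results. Results are given again without these 4 libraries where that ended a call or moved a count by more than 1.5 times.

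In each line the mRNA of the deleted factor was lower but not absent. Rfx2 (chromosome 17, 56775897 to 56831013, GRCm38) was at 42.9 to 54.6 CPM (median 48.1) in Rfx2 knockouts and 83.3 to 127 (109.8) in their wild types, and at 60.9 to 106 CPM (median 74.7) in Rfx3 knockouts and 111 to 124 (118) in their wild types. Rfx3 (chromosome 19, 27761721 to 28011166) was at 165 to 211 CPM (median 187) in Rfx2 knockouts and 142 to 235 (195) in their wild types, and at 25.8 to 52.3 CPM (median 41.2) in Rfx3 knockouts and 158 to 207 (172) in their wild types. In each line the 6 knockouts lay below every wild type for the targeted gene, and Rfx3 knockouts also lay below their wild types in Rfx2. The log2 fold change of Rfx2 was -1.12 (SE 0.11) in its own line and -0.54 (SE 0.11) in the Rfx3 line, a difference of -0.58 (SE 0.16, adjusted p = 0.0336). That difference was not called with samples blocked by replicate number (adjusted p = 0.13) and in 11 of 26 fits that left out 1 library. Rfx3 changed by -2.12 (SE 0.12) in its own line and by -0.05 (SE 0.11) (adjusted p = 0.788) without Rfx2, a difference of 2.07 (SE 0.16, adjusted p = 7.36e-09). Rfx1, the remaining member studied in the series, was at 52.5 to 65.5 CPM (median 58.4) in Rfx2 knockouts and 50.8 to 71.02 (64.4) in their wild types, and at 37.8 to 57.3 CPM (median 46.4) in Rfx3 knockouts and 57.3 to 73.7 (64.5) in their wild types. Its log2 fold change was -0.11 (SE 0.08) without Rfx2 and -0.42 (SE 0.09) without Rfx3, and the difference of 0.31 did not pass (adjusted p = 0.163), but did with replicates 4 and above (0.51, edgeR adjusted p = 0.0151).

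Across 14668 genes tested in a single edgeR fit, the knockout effects differed for 566 (3.86%) at an adjusted p below 0.05. The effect in Rfx2 knockouts minus that in Rfx3 knockouts, here called the difference, was positive for 248 (1.69%) and negative for 318 (2.17%). This split moved with the scaling: with RLE size factors 283 were positive and 234 negative. Of the 566, 183 differed by at least 1 on the log2 scale. In the same fit, Rfx2 knockouts differed from wild types in 3045 genes (20.8%, with 1068 or 7.28% higher and 1977 or 13.5% lower). Rfx3 knockouts differed in 5380 (36.7%, with 2974 or 20.3% higher and 2406 or 16.4% lower). Both counts rest on a spread shared by the lines, and their order was reversed in some alternatives. They were 4601 and 3327 with each line fitted alone, 4746 and 3338 by limma-voom, and 1368 and 327 with replicates 1 to 3. In 249 of the 566 genes (44%) the wild types of the lines also differed, so that the starting level was not the same. The count of called differences fell to 227 with samples blocked by replicate number, and rose to 938 without Rfx3_KO 2. The count for Rfx2 knockouts against their wild types was 4633 without Rfx3_KO 3, and 5562 without the 4 libraries named above.

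Most of the 566 were called in 1 line only: 135 in Rfx2 knockouts (49 higher, 86 lower) and 329 in Rfx3 knockouts (191 higher, 138 lower). A further 26 were called in both lines in the same direction but to unequal degree, and 75 in opposite directions. Of all genes tested, 0.334% were higher and 0.586% lower in Rfx2 knockouts only, 1.3% higher and 0.941% lower in Rfx3 knockouts only, and 0.511% moved in opposite directions. The remaining gene (0.00682%), Vars, was called in neither line alone, with log2 fold changes of -0.11 (SE 0.04) and 0.10 (SE 0.05), and lost its call in 18 of 26 fits without 1 library. A missing call in the other line is not evidence of no change there. For 93 of the 135 genes of Rfx2 only, and for 219 of the 329 of Rfx3 only, the 95% interval of the effect in the other line lay within 0.5 of zero on the log2 scale. With replicate blocks the classes held 55 genes for Rfx2 only, 122 for Rfx3 only, 7 for both and 43 for opposite directions. Without Rfx3_KO 3 there were 211 of Rfx2 only, and without Rfx3_KO 2 there were 614 of Rfx3 only. Without Rfx3_WT 3, Rfx3_KO 6 and Rfx3_KO 5 the latter count was 203, 209 and 217. Without the 4 libraries named above, Rfx2 only held 250 genes.

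**Figure D1:**
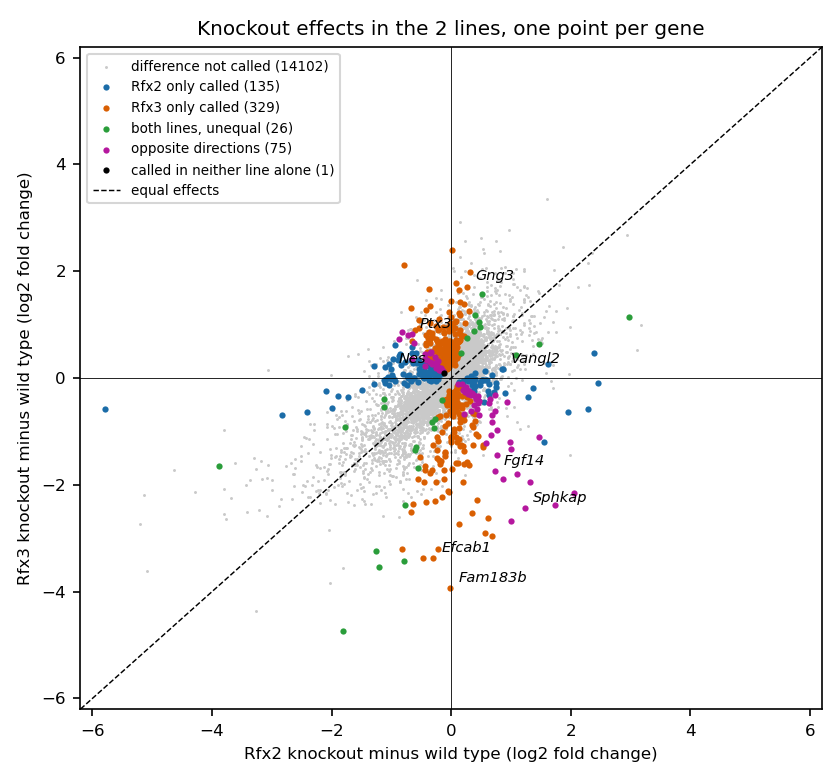
Log2 fold change of each of 14668 genes in Rfx2 knockouts (x axis) and in Rfx3 knockouts (y axis), each against wild types of the same line, with points coloured by class among the 566 genes whose effects differed. Genes called in opposite directions, 75 in all, lie at the upper left and lower right, and genes called in 1 line only lie along the axes.

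Genes that were raised by loss of one factor and lowered by loss of the other numbered 75: 46 were higher in Rfx2 knockouts and lower in Rfx3 knockouts (0.314% of genes tested), and 29 the reverse (0.198%). Differences ran from 0.22 to 4.22 in size for the 46 and from 0.26 to 1.69 for the 29. Those tested kept opposite estimates in each alternative except 1 gene with replicates 1 to 3 only, but the alternatives reuse the libraries from which these genes were chosen. Of the 75, 65 passed the filter at an average log2 CPM of 1, and 72 with each line fitted alone.

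Sphkap (chromosome 1, 83254139 to 83408200), which encodes an anchoring protein of protein kinase A, was at 6.26 to 10.1 CPM (median 8.47) in Rfx2 knockouts and 2.54 to 5.02 (3.63) in their wild types, and at 0.217 to 0.715 CPM (median 0.601) in Rfx3 knockouts and 2.68 to 3.51 (2.94) in their wild types. Every Rfx2 knockout lay above, and every Rfx3 knockout below, all wild types of the same line. The log2 fold changes were 1.23 (SE 0.17) and -2.43 (SE 0.21), and their difference was 3.66 (SE 0.26, adjusted p = 2.31e-09). Avpr1a (chromosome 10, 122448499 to 122453452), a vasopressin receptor, was at 9.39 to 30.98 CPM (median 18.1) in Rfx2 knockouts and 5.36 to 14.2 (10.2) in their wild types, and at 1.09 to 2.17 CPM (median 1.87) in Rfx3 knockouts and 5.71 to 15.9 (11.9) in their wild types. Every Rfx3 knockout lay below all wild types of that line, whereas the Rfx2 groups overlapped. The effects were 0.99 (SE 0.26) and -2.68 (SE 0.31), with a difference of 3.67 (SE 0.40, adjusted p = 2.79e-06). Fgf14 (chromosome 14, 123977907 to 124677127), an intracellular FGF that binds sodium channels, was at 14.6 to 17.98 CPM (median 15.9) in Rfx2 knockouts and 7.11 to 12.6 (9.64) in their wild types, and at 2.37 to 4.03 CPM (median 3.41) in Rfx3 knockouts and 9.68 to 15.4 (10.1) in their wild types. Neither line overlapped, and the difference was 2.48 (SE 0.19, adjusted p = 4.56e-09).

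Fndc9 (chromosome 11, 46235531 to 46239872) was at 10.9 to 13.2 CPM (median 11.7) in Rfx2 knockouts and 2.91 to 6.097 (4.11) in their wild types, and at 1.64 to 3.39 CPM (median 2.16) in Rfx3 knockouts and 4.47 to 5.27 (5.03) in their wild types, with no overlap in either line and a difference of 2.56 (SE 0.23, adjusted p = 9.56e-08). Ednrb (chromosome 14, 103814625 to 103844402), the endothelin B receptor, was at 249 to 287 CPM (median 271) in Rfx2 knockouts and 142 to 180.4 (154) in their wild types, and at 103 to 152 CPM (median 114) in Rfx3 knockouts and 203 to 295 (242) in their wild types. The groups were apart in each line, and the difference was 1.73 (SE 0.13, adjusted p = 2.33e-09). Ecm2 (chromosome 13, 49504810 to 49532789), a matrix protein, was at 75.1 to 91.5 CPM (median 83.5) in Rfx2 knockouts and 45.9 to 58.4 (49.4) in their wild types, and at 28.6 to 37.4 CPM (median 32.2) in Rfx3 knockouts and 46.9 to 54.1 (49.2) in their wild types. The wild types of the lines overlapped here and the knockouts lay apart on either side, with a difference of 1.34 (SE 0.09, adjusted p = 1.56e-09). Lmx1a, a homeodomain factor of the dorsal midline and choroid plexus, was at 10.4 to 19.4 CPM (median 12.1) in Rfx2 knockouts and 5.91 to 9.86 (8.498) in their wild types, and at 4.75 to 7.56 CPM (median 6.45) in Rfx3 knockouts and 6.59 to 12.3 (11.04) in their wild types. Knockouts and wild types did not overlap in the Rfx2 line but did in the Rfx3 line, and the difference was 1.37 (SE 0.24, adjusted p = 0.00108). The 11 tested choroid plexus markers, Lmx1a among them, summed to 132.4 to 158.2 CPM in Rfx2 knockouts and 133.5 to 146.6 CPM in their wild types, and to 109 to 153.6 CPM and 158.1 to 180.5 CPM in the Rfx3 line, where the groups did not overlap. No library had more than 2 counts of Kl or 111 of Ttr, whereas Folr1 and Sostdc1 had at least 515 and 1235 counts in every library and Enpp2 and Otx2 reached 838 and 659. The part of choroid plexus RNA in the result was not tested.

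Planar polarity held 3 called genes of 17 tested, all positive, against 1.69% of all genes. Celsr1, an atypical cadherin of the core polarity complex, was at 149 to 170.4 CPM (median 158) in Rfx2 knockouts and 90.4 to 134 (118) in their wild types, and at 50.4 to 126 CPM (median 99.8) in Rfx3 knockouts and 119 to 133 (124) in their wild types. Its Rfx2 groups were apart and its Rfx3 groups overlapped, and the effects of 0.44 (SE 0.12) and -0.37 (SE 0.13) gave a difference of 0.80 (SE 0.18, adjusted p = 0.0084). Daam1, a formin of the same pathway, was at 143 to 155 CPM (median 148) in Rfx2 knockouts and 120.3 to 133 (124) in their wild types, and at 63.04 to 111 CPM (median 107) in Rfx3 knockouts and 115 to 125 (119) in their wild types. No Daam1 group overlapped its wild types, and the difference was 0.49 (SE 0.11, adjusted p = 0.0152), not called with replicate blocks (adjusted p = 0.0773). Vangl2, a membrane protein of the core complex, was of another kind: it was at 194 to 239.9 CPM (median 215) in Rfx2 knockouts and 108 to 146 (117) in their wild types, and at 129 to 177 CPM (median 160.3) in Rfx3 knockouts and 131 to 152 (136) in their wild types. It rose by 0.85 (SE 0.07) without Rfx2 and differed by 0.17 (SE 0.07) without Rfx3 (adjusted p = 0.0741), a difference of 0.68 (SE 0.10, adjusted p = 0.000239). Over the list the median difference was 0.11, against -0.04 over all genes, and it was -0.01 without the 4 libraries named above, where 4 members were called. Rfx3_KO 3 was the lowest library for both Celsr1 and Daam1.

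Map2, a microtubule-associated protein of neurons, was at 799 to 847 CPM (median 810.2) in Rfx2 knockouts and 576 to 687 (637) in their wild types, and at 306 to 451 CPM (median 427) in Rfx3 knockouts and 561 to 629 (580.2) in their wild types, with no overlap and a difference of 0.88 (SE 0.09, adjusted p = 1.54e-06). The 18 tested markers of neurons and neuroblasts summed to 1047 to 1085 CPM in Rfx2 knockouts and 779.1 to 934.9 CPM in their wild types, and to 506.6 to 691.7 CPM and 696.5 to 775.6 CPM in the Rfx3 line. Map2 made up most of those sums. Gene by gene, the median log2 fold change of the 18 markers was 0.39 without Rfx2 and 0.14 without Rfx3. In Rfx3 knockouts 3 of the 18 were called higher and 2 lower, where 20.3% and 16.4% of all genes were. Snap25 and Gad2 had at most 22 and 28 counts in a library, and the part of neuronal RNA in the result was not tested. Mapk10, encoding the kinase JNK3, was chosen after its values were seen, for its X-box. It was at 149 to 163 CPM (median 158) in Rfx2 knockouts and 124 to 152 (129) in their wild types, and at 79.8 to 117 CPM (median 112) in Rfx3 knockouts and 117 to 125 (119.6) in their wild types, with effects of 0.25 (SE 0.06) and -0.17 (SE 0.07) and a difference of 0.42 (SE 0.09, adjusted p = 0.00726). Rfx2 groups overlapped and Rfx3 groups did not, and Rfx3_KO 3 was the lowest library for both genes.

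Ptx3 (chromosome 3, 66219910 to 66225805), a secreted pentraxin of innate immunity, had the reverse order. It was at 6.65 to 12.2 CPM (median 9.16) in Rfx2 knockouts and 11.3 to 16.6 (14.8) in their wild types, and at 14.5 to 18.2 CPM (median 16.6) in Rfx3 knockouts and 7.87 to 10.7 (9.14) in their wild types. Rfx3 groups did not overlap and Rfx2 groups did in part, with effects of -0.66 (SE 0.12) and 0.82 (SE 0.12) and a difference of -1.49 (SE 0.17, adjusted p = 5.17e-06). Col5a1, a chain of collagen V, was at 38.2 to 53.6 CPM (median 42.7) in Rfx2 knockouts and 57.8 to 78.4 (72.95) in their wild types, and at 58.00 to 95.8 CPM (median 84.01) in Rfx3 knockouts and 52.5 to 71.00 (64.05) in their wild types. Its Rfx2 groups were apart and its Rfx3 groups overlapped, with a difference of -1.02 (SE 0.16, adjusted p = 0.000388). Paqr6, a membrane progestin receptor, was at 1.21 to 2.67 CPM (median 1.85) in Rfx2 knockouts and 2.36 to 4.88 (3.38) in their wild types, and at 6.55 to 12.2 CPM (median 7.96) in Rfx3 knockouts and 4.27 to 5.44 (5.21) in their wild types. Rfx3 knockouts lay above all their wild types and the Rfx2 groups overlapped, with a difference of -1.60 (SE 0.27, adjusted p = 0.000915).

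Mal, a proteolipid of myelin and of apical membranes, had a difference of -1.53 (SE 0.30, adjusted p = 0.00403), and Cdc42ep4, an effector of the GTPase Cdc42, of -0.67 (SE 0.12, adjusted p = 0.00108). Dcaf4, a receptor subunit of a ubiquitin ligase, differed by -0.44 (SE 0.07, adjusted p = 0.000387). Hes1, a repressor induced by Notch, was at 9.81 to 13.2 CPM (median 11.9) in Rfx2 knockouts and 12.1 to 16.3 (14.2) in their wild types, and at 12.2 to 18.4 CPM (median 14.9) in Rfx3 knockouts and 10.1 to 13.4 (11.8) in their wild types. Its groups overlapped in both lines, and its difference of -0.67 (SE 0.14, adjusted p = 0.00705) was not called with replicate blocks (adjusted p = 0.0688). Hes1 was the only 1 of 17 tested Notch pathway genes with a called difference (5.88%, near the 3.86% of all genes).

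**Figure D2:**
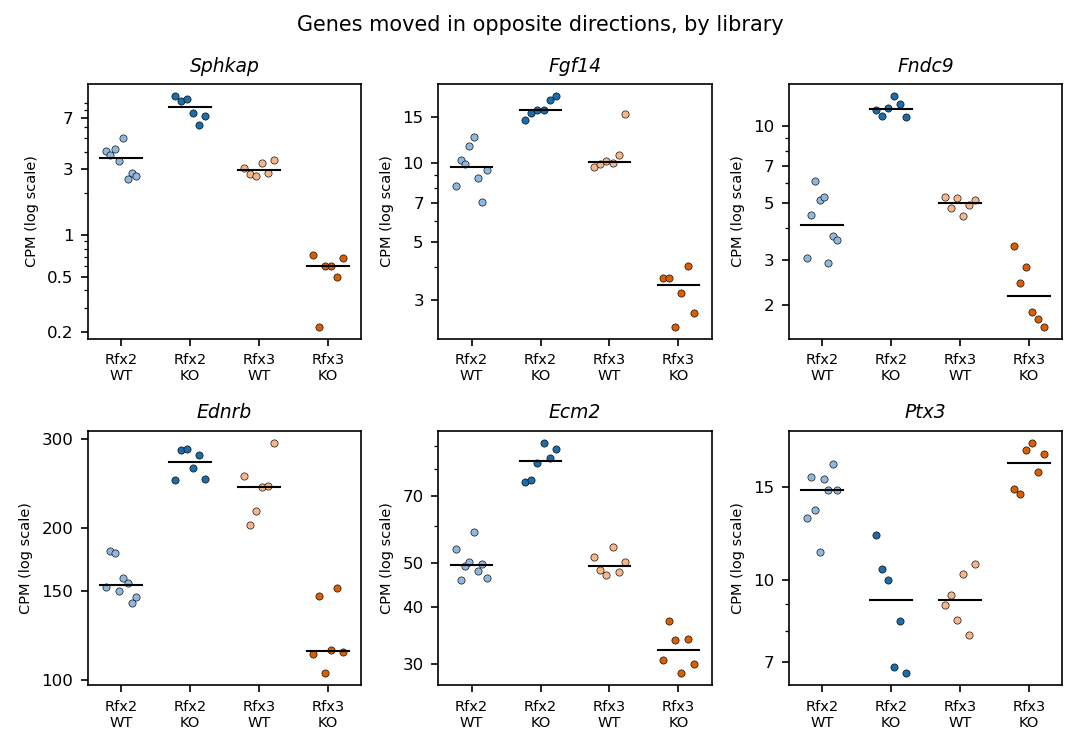
CPM (log scale, a separate axis for each gene) in every library of the 4 groups for 6 genes moved in opposite directions, with a bar at each group's median. For Sphkap, Fgf14, Fndc9, Ednrb and Ecm2 every Rfx2 knockout lies above its wild types and every Rfx3 knockout below, whereas for Ptx3 the order is reversed and the Rfx2 groups overlap.

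Ciliary genes, the known targets of the family, mostly fell in both lines by amounts whose difference was not called. Of 325 tested genes in 17 ciliary lists, 216 (66.5%) were lower in both lines, against 8.96% of all genes. The median log2 fold change was -0.60 without Rfx2 and -0.69 without Rfx3. Only 12 of the 325 had a called difference (3.69%, near the 3.86% of all genes): 11 were positive, that is, lower in Rfx3 knockouts relative to Rfx2 knockouts, and Tubb4a was negative. A difference that was not called does not show equal loss, since the median 95% interval of a ciliary gene reached 0.48 to either side, against 0.30 over all genes. For 53 of the 325, called in both lines, the interval lay within 0.5 of zero. The upstream regulators Foxj1, Mcidas and Ccno had differences of -0.10 (SE 0.23, adjusted p = 0.837), -0.63 (SE 0.50, adjusted p = 0.517) and -0.59 (SE 0.49, adjusted p = 0.537).

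Of the 11 genes, those of the axoneme, the microtubule core of the cilium, had the larger differences. Efcab1 (chromosome 16, 14906606 to 14981371), a calcium-binding protein at the outer dynein arm docking site, was at 20.8 to 32.7 CPM (median 27.5) in Rfx2 knockouts and 19.6 to 58.7 (30.4) in their wild types, and at 1.24 to 10.3 CPM (median 4.200) in Rfx3 knockouts and 40.6 to 75.3 (46.5) in their wild types. Rfx2 groups overlapped fully and every Rfx3 knockout lay below all wild types. The log2 fold change was -3.38 (SE 0.35) without Rfx3 and -0.30 (SE 0.30) without Rfx2, where its 95% interval ran from -0.92 to 0.31, and the difference was 3.08 (SE 0.45, adjusted p = 0.000178). Armc4, which docks outer dynein arms as well, was at 5.83 to 12.1 CPM (median 8.99) in Rfx2 knockouts and 7.32 to 23 (13.9) in their wild types, and at 1.597 to 7.38 CPM (median 3.08) in Rfx3 knockouts and 16.6 to 27.1 (18.4) in their wild types, with a difference of 1.73 (SE 0.40, adjusted p = 0.0123). Both belong to the list of 6 docking factors, in which all 6 estimates were positive.

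Fam183b (chromosome 11, 58792797 to 58801960), a protein inside the microtubule wall, was at 12.6 to 20.1 CPM (median 15.3) in Rfx2 knockouts and 4.54 to 25.5 (16.2) in their wild types, and at 0.109 to 16.3 CPM (median 0.606) in Rfx3 knockouts and 17.1 to 71.4 (64.7) in their wild types. In the Rfx3 line all knockouts lay below the wild types, but Rfx3_KO 1 at 16.3 CPM stood far above the other 5, which ran from 0.109 to 1.403 CPM. The difference was 3.92 (SE 0.96, adjusted p = 0.0192), with a 95% interval from 1.95 to 5.90. With a block for the Rfx2 line alone its adjusted p was 0.0851, and without the 4 libraries named above it was not called either. Cfap73 (chromosome 5, 120628335 to 120634235), at the base of inner dynein arms, was at 3.21 to 6.58 CPM (median 4.85) in Rfx2 knockouts and 3.44 to 10.2 (6.94) in their wild types, and at 0.2396 to 2.17 CPM (median 0.826) in Rfx3 knockouts and 8.85 to 13.6 (10.5) in their wild types. It overlapped in the Rfx2 line and not in the Rfx3 line, with a difference of 2.90 (SE 0.43, adjusted p = 0.000226).

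Spag16 and Spag17 encode parts of the central pair, the inner microtubules of a motile cilium. Spag16 (chromosome 1, 69826970 to 70725132) was at 12.3 to 15.4 CPM (median 14.3) in Rfx2 knockouts and 11.6 to 23.4 (19.5) in their wild types, and at 3.67 to 10.8 CPM (median 5.94) in Rfx3 knockouts and 26.1 to 34.5 (32.5) in their wild types, apart only in the Rfx3 line. Its difference was 1.91 (SE 0.27, adjusted p = 0.00011). Spag17 (chromosome 3, 99885406 to 100143322) fell in both lines, with log2 fold changes of -1.21 (SE 0.39) and -3.55 (SE 0.45). It was at 6.81 to 11.1 CPM (median 7.502) in Rfx2 knockouts and 8.21 to 38.3 (16.6) in their wild types, and at 0.719 to 5.403 CPM (median 1.19) in Rfx3 knockouts and 22.5 to 41.2 (25.6) in their wild types, with a difference of 2.34 (SE 0.57, adjusted p = 0.019), which was not called without the 4 libraries. Vwa3a (chromosome 7, 120739318 to 120805742) was in none of the lists and likewise fell in both, with fold changes of -0.78 (SE 0.25) and -2.38 (SE 0.28) and a difference of 1.60 (SE 0.36, adjusted p = 0.0112). Ttll10, which adds glycine chains to tubulin, was at 2.55 to 4.13 CPM (median 3.51) in Rfx2 knockouts and 1.27 to 4.05 (2.44) in their wild types, and at 0.1198 to 0.9005 CPM (median 0.391) in Rfx3 knockouts and 1.47 to 5.39 (2.19) in their wild types. Its estimates had opposite signs, 0.35 (SE 0.29) (adjusted p = 0.439) and -2.54 (SE 0.36), with a difference of 2.89 (SE 0.46, adjusted p = 0.000407).

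The inner dynein arm subunits had the widest gap between lines among the ciliary lists, with a median fold change of -0.88 without Rfx2 and -1.46 without Rfx3. All 16 were lower in Rfx3 knockouts and 13 in Rfx2 knockouts, but only Dnah7c had a called difference (0.97 (SE 0.28, adjusted p = 0.0476)). Dnah7c shares near-identical sequence with other Dnah7 copies, so the reads of each are uncertain, and its call ended in 21 of 26 fits without 1 library and without the 4 libraries. Outside the axoneme, Rp2, which acts on the ciliary GTPase Arl3, differed by 0.29 (SE 0.06, adjusted p = 0.00864), Bbs10, a chaperonin of the BBSome, by 0.43 (SE 0.12, adjusted p = 0.0371), and Cdk5rap2, a centrosomal protein, by 0.39 (SE 0.11, adjusted p = 0.0496). In each the Rfx2 effect was near zero (-0.04 (SE 0.04), 0.08 (SE 0.08) and -0.07 (SE 0.08)). With replicate blocks these calls ended for Rp2 (adjusted p = 0.0517), Bbs10 (0.067), Cdk5rap2 (0.15) and Dnah7c (0.117), while Bbs10 and Cdk5rap2 were also lost in 14 and 21 of 26 fits without 1 library, and Bbs10 without the 4 libraries.

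**Figure D3:**
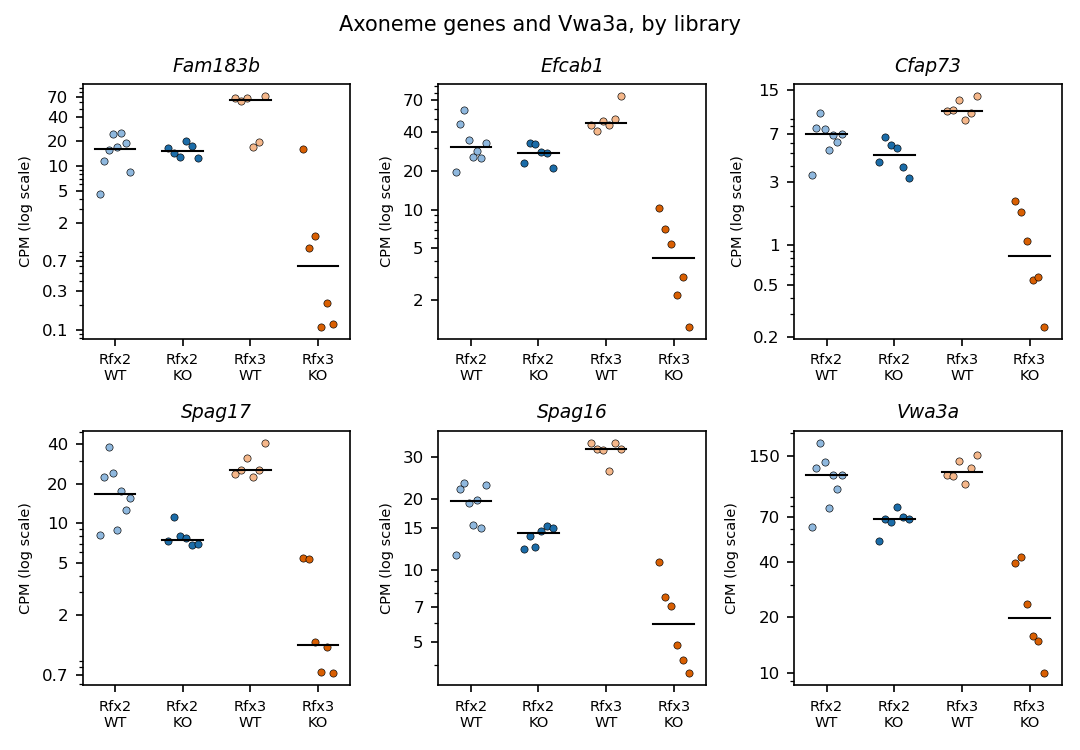
CPM (log scale, a separate axis for each gene) in every library for 5 genes of the ciliary lists and Vwa3a, whose effects differed, with a bar at each group's median. Rfx3 knockouts lie below all their wild types in each panel, while Rfx2 knockouts overlap theirs, in part or fully, and Rfx3_KO 1 stands apart for Fam183b.

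Ciliary loss in the Rfx3 line was not even across libraries. Relative to wild types of their line, the mean over central pair genes was -0.62, -0.73 and -1.31 on the log2 scale in Rfx3_KO 1 to 3 and -2.01, -1.91 and -2.47 in Rfx3_KO 4 to 6, whereas Rfx2 knockouts ran from -1.19 to -0.81. When the samples with replicate numbers 1 to 3 were fitted alone, the median difference over the 325 ciliary genes was -0.305, with 64 positive estimates. There edgeR called 0 of the 325, and 73 had an unadjusted p below 0.05. With numbers 4 and above it was 0.535, with 297 positive estimates, 195 called positive and 4 negative. Of all 14827 genes tested in that fit, 1539 were called positive and 1793 negative. Every one of the 17 lists had a negative median in the former fit and a positive median in the latter. Over all genes 28 differences were called with replicates 1 to 3 and 1750 had an unadjusted p below 0.05. Foxj1 changed sign likewise, with a difference of 0.48 (edgeR adjusted p = 0.0128) in replicates 4 and above. Whether the 2 sets of samples differ was not tested, and no label says that replicate numbers mark a batch. In Rfx3_KO 4 to 6 the astrocyte list stood at 1.15, 1.16 and 1.02 above wild types, against 0.05 to 0.24 in Rfx3_KO 1 to 3. In the Rfx2 line it stood at 0.51, 0.48 and 0.49 in Rfx2_KO 1 to 3 and at -0.38, -0.04 and -0.33 in Rfx2_KO 4 to 6. Oligodendrocyte markers split by the same numbers there. They stood at 2.32, 2.49 and 2.29 above wild types in Rfx2_KO 1 to 3 and 1.47, 1.88 and 0.24 in Rfx2_WT 1 to 3, against -0.23, -0.67 and -1.07 in Rfx2_KO 4 to 6 and -0.83 to -0.56 in Rfx2_WT 4 to 8. In the Rfx3 line they stood at 1.8, 2.56 and 1.04 in Rfx3_KO 4 to 6 and at 1.23, -0.20 and -0.22 in Rfx3_KO 1 to 3. The 25 astrocyte markers summed to 4167 to 8495 CPM in Rfx3 knockouts and 3479 to 7306 CPM in their wild types. In the Rfx2 line they summed to 8474 to 14470 CPM and 6610 to 11810 CPM. Of these 25 markers, 11 were called higher and 0 lower in Rfx3 knockouts, against 20.3% and 16.4% of all genes. In Rfx2 knockouts 2 were called higher and 1 lower, against 7.28% and 13.5% of all genes. Gfap and Aqp4, which define astrocytes but are also made by other glia, had at least 8004 and 7541 counts in every library, and the part of astrocytes and oligodendrocytes in the ciliary result was not tested.

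**Figure D4:**
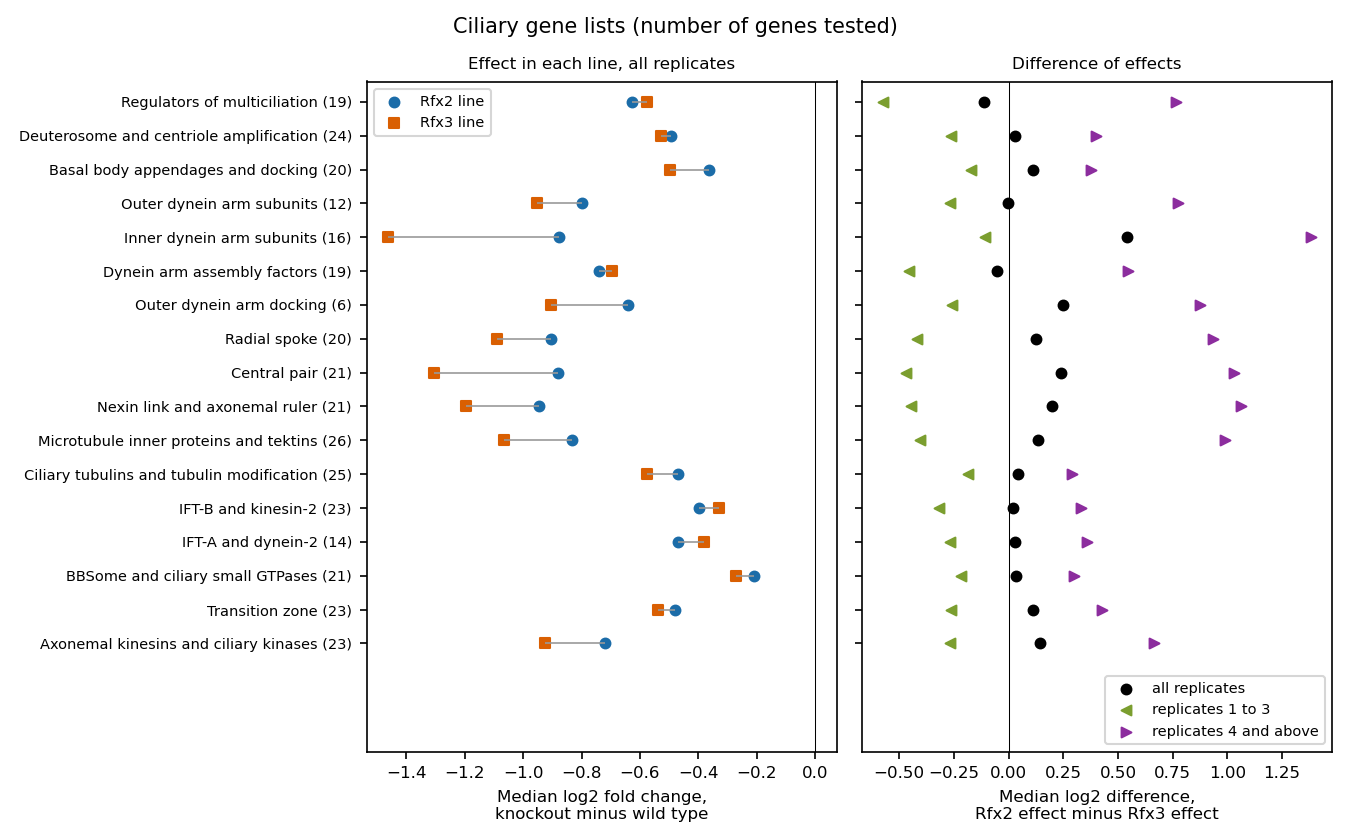
Left, median log2 fold change over the tested genes of each ciliary list in the Rfx2 line (circles) and the Rfx3 line (squares). Right, median difference of effects with all replicates (black), with replicates 1 to 3 (left-pointing) and with replicates 4 and above (right-pointing). Each list falls in both lines, and its difference is negative in replicates 1 to 3 and positive in replicates 4 and above.

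Promoter sequence was compared with these classes using RefSeq windows of 300 bases, from 250 before to 50 after each gene's start, on GRCm38.p6, which were matched by symbol for 11488 of 14668 genes. A gene was counted if any of its windows held a match on either strand, overlapping matches included. A full X-box was found for 236 genes (2.05%) and the half-site GTTGCC for 1756 (15.3%). The X-box was present in 3 of 105 matched genes lower in Rfx3 knockouts only (Sgsm1, Spag16 and Ttll10) and in Mapk10 among 34 of the opposite class higher without Rfx2. No match was found in the other classes of genes with a called difference. Of 409 matched genes lowered to a similar degree in both lines, 17 had an X-box (4.16%) and 109 the half-site (26.7%). Of 305 raised to a similar degree, 1 (0.328%) and 34 (11.1%) did. A match is a stretch of letters, not a measured site. The following 5 windows are shown to set genes lowered only without Rfx3 beside genes lowered in both lines. Each is the 180 bases that end just before the gene's start, 5′ to 3′ on the gene's strand, with matches to the X-box in capitals, or to the half-site for Fam183b, which had no full X-box there.
Spag16, chr1:69826790-69826969, plus strand: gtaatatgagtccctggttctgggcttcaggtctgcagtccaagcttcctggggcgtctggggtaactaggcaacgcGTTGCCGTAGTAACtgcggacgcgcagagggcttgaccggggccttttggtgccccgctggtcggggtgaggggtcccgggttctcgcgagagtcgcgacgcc
Sgsm1, chr5:113310787-113310966, minus strand: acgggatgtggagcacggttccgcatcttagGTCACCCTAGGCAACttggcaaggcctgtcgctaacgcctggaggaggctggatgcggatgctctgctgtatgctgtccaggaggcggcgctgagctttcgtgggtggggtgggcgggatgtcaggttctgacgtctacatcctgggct
Fam183b, chr11:58801961-58802140, minus strand: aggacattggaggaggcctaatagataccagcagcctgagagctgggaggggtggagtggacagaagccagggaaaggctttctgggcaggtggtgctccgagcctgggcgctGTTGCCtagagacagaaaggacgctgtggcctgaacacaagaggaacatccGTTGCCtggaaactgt
Ift57, chr16:49699114-49699293, plus strand: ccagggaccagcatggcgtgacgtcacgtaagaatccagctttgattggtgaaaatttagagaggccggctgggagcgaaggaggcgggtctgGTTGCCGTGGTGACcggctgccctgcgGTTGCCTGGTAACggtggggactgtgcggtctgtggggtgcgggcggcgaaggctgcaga
Tctn3, chr19:40612232-40612411, minus strand: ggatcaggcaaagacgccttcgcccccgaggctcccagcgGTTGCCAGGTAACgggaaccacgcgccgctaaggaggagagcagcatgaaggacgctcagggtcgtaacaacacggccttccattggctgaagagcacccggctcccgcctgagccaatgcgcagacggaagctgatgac

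The match ended 90 bases before the start in Spag16 and 135 bases before it in Sgsm1. In Fam183b the half-sites ended 62 and 11 bases before the start. Sgsm1, Ift57 and Tctn3 were chosen for their sequences after their values were seen. Sgsm1, a regulator of small GTPases, changed by -1.65 (SE 0.19) without Rfx3 and by -0.44 (SE 0.17) (adjusted p = 0.0739) without Rfx2, a difference of 1.21 (SE 0.25, adjusted p = 0.00648). Ift57, an intraflagellar transport protein with a pair of matches 74 and 48 bases before the start, was at 51.1 to 61.5 CPM (median 56.5) in Rfx2 knockouts and 62.4 to 79.3 (69.04) in their wild types, and at 64.1 to 107 CPM (median 73.5) in Rfx3 knockouts and 92.2 to 101 (94.2) in their wild types. The groups were apart in the Rfx2 line and overlapped in the Rfx3 line. Its log2 fold changes were close, -0.27 (SE 0.09) and -0.30 (SE 0.09), and the 95% interval of the difference ran from -0.23 to 0.29. With replicates 4 and above the difference was 0.35 and called (edgeR adjusted p = 0.00291). Tctn3, a transition zone protein with a match 128 bases before the start, was at 28.7 to 35.5 CPM (median 33.5) in Rfx2 knockouts and 35.8 to 58.8 (46.6) in their wild types, and at 26.2 to 46.1 CPM (median 33.7) in Rfx3 knockouts and 47.8 to 57.3 (53.03) in their wild types. Neither line overlapped. The effects were -0.48 (SE 0.12) and -0.54 (SE 0.12), with an interval of the difference from -0.28 to 0.40. With replicates 4 and above the difference was 0.45 and called too (edgeR adjusted p = 0.031).

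Genes lowered in Rfx3 knockouts only included transporters and enzymes outside the cilium. Slc6a19 (chromosome 13, 73679745 to 73704865), a transporter of neutral amino acids, was at 9.13 to 12.7 CPM (median 11.3) in Rfx2 knockouts and 7.22 to 11.2 (9.89) in their wild types, and at 2.05 to 4.39 CPM (median 2.97) in Rfx3 knockouts and 10.3 to 13.1 (11.4) in their wild types. Rfx3 knockouts lay below all wild types and the Rfx2 groups overlapped. It changed by -1.95 (SE 0.14) without Rfx3 and the 95% interval without Rfx2 ran from -0.07 to 0.45, with a difference of 2.15 (SE 0.19, adjusted p = 5.25e-08). St8sia1, which makes the ganglioside GD3, was at 33.2 to 44.1 CPM (median 39.9) in Rfx2 knockouts and 19.5 to 42.4 (33.4) in their wild types, and at 8.82 to 17.1 CPM (median 13.9) in Rfx3 knockouts and 33.5 to 47.7 (37.5) in their wild types, with a difference of 1.84 (SE 0.22, adjusted p = 1.14e-05). Pnmal2 differed by 1.06 (SE 0.12, adjusted p = 4.82e-06) and Vwa5b1 by 2.86 (SE 0.55, adjusted p = 0.0029). Mia, a secreted protein from the list of ependymal markers, was at 18.8 to 26.6 CPM (median 25.2) in Rfx2 knockouts and 16.5 to 25.4 (22.6) in their wild types, and at 4.11 to 14.5 CPM (median 6.93) in Rfx3 knockouts and 14.7 to 26.6 (17.8) in their wild types. It changed by -1.27 (SE 0.23) without Rfx3, against an estimate of 0.14 (SE 0.21) (adjusted p = 0.677) without Rfx2, and the difference was 1.42 (SE 0.31, adjusted p = 0.00799).

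Genes raised in Rfx3 knockouts only numbered 191, or 1.3% of those tested, with a median fold change of 0.55 in that line and -0.06 in the Rfx2 line. They outnumbered the 138 lowered only there, but not with RLE scaling (128 against 157), with replicate blocks (52 against 70), with the block in the Rfx2 line only (86 against 94), in the fit of all 34 samples (155 against 181) or with replicates 1 to 3 (1 against 6). Without Rfx3_WT 5 the counts were equal, at 113. Qpct, which forms N-terminal pyroglutamate, was at 5.83 to 9.07 CPM (median 7.69) in Rfx2 knockouts and 5.68 to 11.1 (7.53) in their wild types, and at 12.1 to 18.9 CPM (median 16.5) in Rfx3 knockouts and 6.83 to 8.303 (7.24) in their wild types. Srxn1, which reduces overoxidised peroxiredoxins, was at 46.7 to 56.2 CPM (median 50.2) in Rfx2 knockouts and 50.02 to 57.7 (52.5) in their wild types, and at 69.4 to 87.7 CPM (median 77.8) in Rfx3 knockouts and 48.7 to 59.1 (56.95) in their wild types. In both genes the Rfx3 groups were apart and the Rfx2 groups overlapped, with differences of -1.15 (SE 0.18, adjusted p = 0.000282) and -0.52 (SE 0.08, adjusted p = 0.000282). Cltb, a clathrin light chain, was at 69.4 to 93.2 CPM (median 84.2) in Rfx2 knockouts and 74.04 to 111 (97.4) in their wild types, and at 112 to 206 CPM (median 178) in Rfx3 knockouts and 82.4 to 89.3 (86.3) in their wild types, with a difference of -1.12 (SE 0.18, adjusted p = 0.000404). Gng3, a G protein gamma subunit, rose by 1.71 (SE 0.17) without Rfx3, with a difference of -1.45 (SE 0.23, adjusted p = 0.000503). Ggt7 differed by -0.70 (SE 0.11, adjusted p = 0.000397).

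Larger but less even rises were seen for Sema7a, a membrane-anchored semaphorin, Igfbpl1, Ace and Scrg1. Sema7a ran from 3.78 to 18.3 CPM in Rfx3 knockouts and Igfbpl1 from 25.4 to 116 CPM. Their differences were -1.71 (SE 0.39, adjusted p = 0.013) and -1.53 (SE 0.44, adjusted p = 0.0474), that of Ace, the angiotensin-converting enzyme, was -1.47 (SE 0.34, adjusted p = 0.0141), and that of Scrg1 was -1.68 (SE 0.48, adjusted p = 0.0467). With replicate blocks Sema7a (adjusted p = 0.109), Igfbpl1 (0.103) and Ace (0.089) were not called. Igfbpl1 and Scrg1 each lost the call in 19 of 26 fits without 1 library, and Igfbpl1 without the 4 libraries.

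Cholesterol synthesis genes were raised in Rfx3 knockouts. Of 25 tested, 20 were higher in Rfx3 knockouts (20.3% of all genes were), while in Rfx2 knockouts 1 was higher and 2 were lower. The median fold change was 0.44 without Rfx3 and 0.07 without Rfx2. All 25 estimates of the difference were negative, with a median of -0.41 against -0.04 over all genes. Of the 25, 7 were called, all negative (2.17% of all genes were called negative). A uniform sign was not particular to this list, since 0 of 30 ribosomal protein genes had a positive estimate. With replicates 1 to 3 the cholesterol list had 4 positive estimates and a median difference of -0.24. Fdps, which makes farnesyl diphosphate, was at 14.3 to 20.5 CPM (median 17.96) in Rfx2 knockouts and 16.01 to 20.2 (18.53) in their wild types, and at 34.3 to 62.7 CPM (median 51.3) in Rfx3 knockouts and 29.9 to 33.4 (30.99) in their wild types. Mvk, mevalonate kinase, was at 17.9 to 22.1 CPM (median 19.3) in Rfx2 knockouts and 19 to 22.9 (21.3) in their wild types, and at 21.7 to 32.6 CPM (median 24.8) in Rfx3 knockouts and 18.9 to 20.9 (19.8) in their wild types. For both, Rfx3 knockouts lay above all wild types and the Rfx2 groups overlapped, with differences of -0.66 (SE 0.15, adjusted p = 0.0128) and -0.46 (SE 0.11, adjusted p = 0.013). Tm7sf2, a sterol reductase, differed by -0.53 (SE 0.12, adjusted p = 0.015).

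The other called members were Fdft1 (-0.46), Msmo1 (-0.54) and Nsdhl (-0.48), enzymes of the same pathway, and Insig1 (-0.63), which holds back its activation; these 4 are named to complete the count. With replicate blocks the 4 were not called (adjusted p = 0.0763, 0.0653, 0.0512 and 0.0995), nor was Tm7sf2 (0.0608), and Fdps and Mvk were. None of the 4 was called without the 4 libraries. Fdft1 and Insig1 each lost the call in 17 of 26 fits without 1 library, Nsdhl without Rfx2_KO 2, Rfx3_KO 4 or Rfx3_KO 6, and Msmo1 without Rfx3_KO 4. The number called was 5 with RLE scaling, 4 without the 4 libraries, 3 with replicate blocks, 20 in replicates 4 and above (where 1793 of all 14827 genes were called negative) and 0 by edgeR in replicates 1 to 3, where 4 had an unadjusted p below 0.05. DESeq2 and limma-voom called 7 and 5 over all replicates. It was 12 without Rfx3_KO 2, 3 without Rfx3_KO 4 and 4 without Rfx3_KO 6. Relative to its wild types the list stood at 0.12 and 0.06 in Rfx3_KO 1 and 2, at 0.34 in Rfx3_KO 3 and at 0.52 to 0.69 in Rfx3_KO 4 to 6, the 3 libraries that were also highest for astrocyte genes and lowest for central pair genes. The part of those libraries' makeup in the result was not tested.

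Genes called only in Rfx2 knockouts were fewer. Among those raised, Adcyap1r1, the receptor of the neuropeptide PACAP, was at 42.7 to 101 CPM (median 82.7) in Rfx2 knockouts and 23.8 to 45.96 (30.1) in their wild types, and at 19.9 to 33.5 CPM (median 22.5) in Rfx3 knockouts and 25.4 to 51.6 (28.3) in their wild types. Its groups overlapped in both lines, since Rfx2_KO 6 at 42.7 CPM lay within the wild-type range, and Rfx3_WT 6 was far above the other Rfx3 wild types. The effects were 1.28 (SE 0.19) and -0.35 (SE 0.21), with a difference of 1.63 (SE 0.28, adjusted p = 0.00108). Cacnb2, a calcium channel beta subunit, was at 49.9 to 63.1 CPM (median 56.03) in Rfx2 knockouts and 30.8 to 44.2 (36.04) in their wild types, and at 19.4 to 25.5 CPM (median 24.1) in Rfx3 knockouts and 23.9 to 27.3 (24.8) in their wild types, and Camta1, a calmodulin-binding transcription activator, was at 40.98 to 55.9 CPM (median 51.4) in Rfx2 knockouts and 29.4 to 36.4 (33.7) in their wild types, and at 22.98 to 30.2 CPM (median 25.6) in Rfx3 knockouts and 24.3 to 30.6 (26.7) in their wild types. In both the Rfx2 groups did not overlap and the Rfx3 groups did, with differences of 0.73 (SE 0.11, adjusted p = 0.000219) and 0.62 (SE 0.11, adjusted p = 0.000986). Ccdc184 differed by 1.18 (SE 0.19, adjusted p = 0.000543). Adamts3, a protease that trims procollagen, differed by 1.35 (SE 0.35, adjusted p = 0.0262), and this was not called with replicate blocks (adjusted p = 0.0922) or without Rfx2_KO 4 (0.0573), Rfx2_KO 6 (0.054), Rfx3_WT 4 (0.0512) or Rfx3_WT 5 (0.0508).

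Among genes lowered only without Rfx2, Nes (chromosome 3, 87971078 to 87980451), the intermediate filament nestin of neural progenitors, stood out by its level. It was at 236 to 455 CPM (median 388) in Rfx2 knockouts and 595 to 820.2 (768) in their wild types, and at 663 to 1271 CPM (median 858) in Rfx3 knockouts and 717 to 973 (772) in their wild types. All Rfx2 knockouts lay below all wild types and the Rfx3 groups overlapped. The effects were -1.01 (SE 0.14) and 0.17 (SE 0.15) (adjusted p = 0.393), with a difference of -1.18 (SE 0.20, adjusted p = 0.00108). Of 16 tested markers of radial glia and neural stem cells, Nes and Hes1 alone had a called difference, and the list summed to 3987 to 4599 CPM in Rfx2 knockouts and 4113 to 4790 CPM in their wild types. Actn2, an alpha-actinin, was at 0.559 to 1.59 CPM (median 1.16) in Rfx2 knockouts and 1.85 to 3.66 (2.77) in their wild types, and at 2.49 to 3.91 CPM (median 3.04) in Rfx3 knockouts and 2.07 to 3.35 (2.71) in their wild types, with a difference of -1.51 (SE 0.28, adjusted p = 0.00166). Txlnb, beta-taxilin, was at 5.77 to 10.2 CPM (median 8.29) in Rfx2 knockouts and 13.9 to 20.7 (17.3) in their wild types, and at 12.2 to 23.7 CPM (median 19.2) in Rfx3 knockouts and 14.2 to 19.3 (16.3) in their wild types, with a difference of -1.32 (SE 0.22, adjusted p = 0.000562). Rfx2 knockouts lay below all wild types in both.

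Col9a3, a chain of collagen IX, differed by -0.98 (SE 0.17, adjusted p = 0.00114), and Tlcd1, a membrane protein, by -0.44 (SE 0.08, adjusted p = 0.00123). Crabp1, which binds retinoic acid in the cytoplasm, differed by -1.07 (SE 0.26, adjusted p = 0.019), and Notum, which inactivates Wnt proteins, by -1.22 (SE 0.31, adjusted p = 0.0248) at a level below 1.41 CPM in every library. Tlcd1 and Crabp1 were not called with replicate blocks (adjusted p = 0.0545 and 0.0793), and Notum was not without the 4 libraries. Khsrp, an RNA-binding protein, was at 78.4 to 84.8 CPM (median 80.5) in Rfx2 knockouts and 102 to 117 (113) in their wild types, and at 106 to 138 CPM (median 132) in Rfx3 knockouts and 123 to 132 (126) in their wild types, with a difference of -0.49 (SE 0.07, adjusted p = 7.18e-05). It lies on chromosome 17 within 10 Mb of Rfx2, where 8 of 120 tested genes had a called difference (6.67%), against 3.84% of the genes outside that window. Within 10 Mb of Rfx3 the count was 7 of 96 (7.29%), again against 3.84% outside. Whether neighbourhood of a deleted gene plays a part was not tested.

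**Figure D5:**
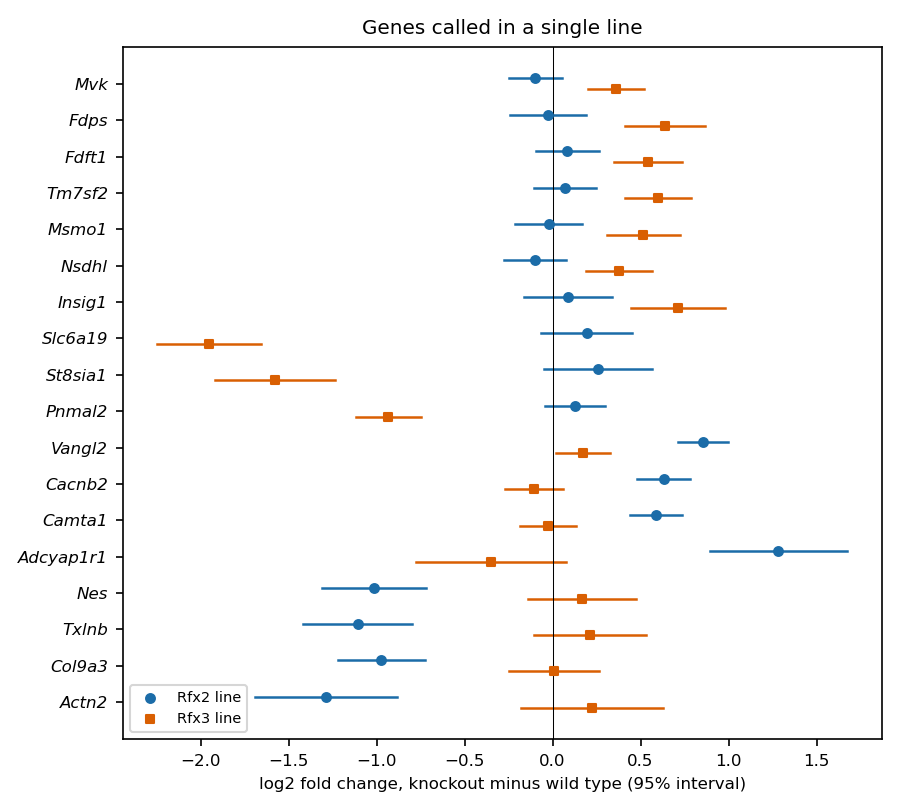
Log2 fold change (x axis) with its 95% interval in the Rfx2 line (circles) and the Rfx3 line (squares) for 18 genes called in 1 line only. The 7 cholesterol synthesis genes at the top lie above zero in the Rfx3 line and have intervals across zero in the Rfx2 line, and the 8 genes from Vangl2 down are apart from zero in the Rfx2 line, with the Rfx3 interval of Vangl2 also above zero although its adjusted p was 0.0741.

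Of the 26 genes that moved in the same direction to unequal degree, 12 fell further without Rfx3 (0.0818% of genes tested) and 4 fell further without Rfx2 (0.0273%), while 7 rose further without Rfx3 (0.0477%) and 3 without Rfx2 (0.0205%). Pitpnm3, a phosphatidylinositol transfer protein, was at 16.6 to 22.9 CPM (median 21.5) in Rfx2 knockouts and 52.3 to 87.5 (69.2) in their wild types, and at 23.3 to 44.3 CPM (median 34.2) in Rfx3 knockouts and 57.7 to 66.5 (62.9) in their wild types. Neither line overlapped. The fold changes of -1.77 (SE 0.13) and -0.92 (SE 0.13) gave a difference of -0.85 (SE 0.18, adjusted p = 0.00647). Rbm24, an RNA-binding protein, differed by 0.71 (SE 0.16, adjusted p = 0.0131), Dnaja4, a co-chaperone, by 0.75 (SE 0.18, adjusted p = 0.0175), and Itga2b, an integrin chain, by 0.64 (SE 0.15, adjusted p = 0.0151), each falling further without Rfx3. Kcnc1, a potassium channel, was at 18.1 to 21.4 CPM (median 18.7) in Rfx2 knockouts and 5.44 to 10.2 (6.41) in their wild types, and at 13.99 to 18.9 CPM (median 16.6) in Rfx3 knockouts and 9.44 to 12 (10.2) in their wild types. All knockouts lay above their wild types, with rises of 1.47 (SE 0.11) and 0.64 (SE 0.12) and a difference of 0.83 (SE 0.16, adjusted p = 0.00391). Fmo1, an oxygenase, rose further without Rfx2 as well (0.66 (SE 0.19, adjusted p = 0.0472)).

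A pair of tubulin genes and Wnt7a rose further without Rfx3. Tuba4a was at 21.4 to 26.7 CPM (median 24.2) in Rfx2 knockouts and 13.6 to 23.9 (17.4) in their wild types, and at 20.9 to 30.03 CPM (median 25.9) in Rfx3 knockouts and 9.73 to 12.6 (10.8) in their wild types. Only its Rfx3 groups were apart, with effects of 0.40 (SE 0.10) and 1.18 (SE 0.11) and a difference of -0.78 (SE 0.15, adjusted p = 0.00302). Tubb4a rose by 0.49 (SE 0.08) and 0.96 (SE 0.09), a difference of -0.47 (SE 0.12, adjusted p = 0.0332), and was the only ciliary list member with a called negative difference. It lies within 10 Mb of Rfx2. Wnt7a, a secreted Wnt ligand, was at 29.3 to 34.5 CPM (median 32.8) in Rfx2 knockouts and 19.99 to 29.1 (22.4) in their wild types, and at 40.5 to 53.3 CPM (median 49.7) in Rfx3 knockouts and 18.9 to 25.9 (23.6) in their wild types, with effects of 0.47 (SE 0.08) and 1.06 (SE 0.09) and a difference of -0.59 (SE 0.12, adjusted p = 0.00705). With replicate blocks the differences of Tubb4a (adjusted p = 0.155), Wnt7a (0.0799), Rbm24 (0.067), Dnaja4 (0.0608) and Fmo1 (0.109) were not called, and those of Tubb4a and Dnaja4 were not without the 4 libraries. Fmo1 and Tubb4a lost the call in 19 and 11 of 26 fits without 1 library. The number of genes in this class ran from 13 to 61 over those fits: it was 13 to 17 without Rfx2_KO 1, 3 or 4, Rfx2_WT 8, Rfx3_KO 5 or Rfx3_WT 3 or 5, and 42, 52 and 61 without Rfx3_KO 1, 2 and 3. Without the 4 libraries it was 87.

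Against these stood the genes on which loss of each factor had a similar effect, called in both lines in the same direction with a 95% interval of the difference within 0.5 of zero. There were 881 (6.01%), 500 lower (3.41%) and 381 higher (2.6%), out of 1314 genes called lower in both lines (8.96%) and 516 called higher (3.52%). The count was 570 with replicate blocks, 1822 without Rfx3_KO 3 and 2267 without the 4 libraries, and 427 with a bound of 0.3. Across all 14668 genes the effects of both knockouts had a Pearson correlation of 0.645, a description over genes that are not independent, with no test. Plekha2, which binds a phosphoinositide, was at 93.7 to 107 CPM (median 101) in Rfx2 knockouts and 127 to 183 (162) in their wild types, and at 74.2 to 94.9 CPM (median 91.4) in Rfx3 knockouts and 142 to 189 (171) in their wild types. Its fold changes were -0.67 (SE 0.07) and -0.92 (SE 0.08), with an interval of the difference from 0.03 to 0.47.

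Creb3l1, a transcription factor held in the endoplasmic reticulum, was at 9.75 to 13.9 CPM (median 11.9) in Rfx2 knockouts and 19.4 to 27.3 (23.2) in their wild types, and at 10.4 to 15.7 CPM (median 13.3) in Rfx3 knockouts and 20.8 to 28.8 (26.3) in their wild types. Its fold changes were -0.99 (SE 0.10) and -0.91 (SE 0.11), with an interval of the difference from -0.38 to 0.23. Abcc12, a transporter, changed by -0.88 (SE 0.09) and -0.79 (SE 0.10), Ivns1abp by -0.67 (SE 0.07) and -0.59 (SE 0.08), and Mr1, which presents vitamin B metabolites to T cells, by -0.58 (SE 0.08) and -0.68 (SE 0.08). Knockouts lay below all wild types of their line for Creb3l1 and Plekha2. Of the genes raised to a similar degree, Mboat7, an acyltransferase acting on phosphatidylinositol, changed by 0.66 (SE 0.07) and 0.45 (SE 0.08), and Rcan1, an inhibitor of calcineurin, by 0.42 (SE 0.06) and 0.49 (SE 0.07). Asphd2 changed by 0.71 (SE 0.08) and 0.76 (SE 0.09), Csdc2 by 0.36 (SE 0.06) and 0.40 (SE 0.07), and the adhesion protein Cadm2 by 0.55 (SE 0.10) and 0.72 (SE 0.11). The effects of Ivns1abp and Mboat7 did differ without the 4 libraries (differences of -0.25 and 0.32, edgeR adjusted p = 0.0239 and 0.00979), and those of Mboat7 without Rfx2_WT 5 (0.29, adjusted p = 0.0176).

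Markers of cell types had uneven levels, and their called differences over all replicates stand beside 3.86% of all genes. Called were 2 of 16 markers of radial glia and neural stem cells (12.5%, both negative) and 2 of 18 of neurons and neuroblasts (11.11%, both positive). For choroid plexus 1 of 11 was called (9.09%), and of 23 ependymal markers 1 was called positive and 1 negative (8.7%). By edgeR none of 25 astrocyte, 15 microglial or 14 endothelial, pericyte and fibroblast markers was called (6, 0 and 2 had an unadjusted p below 0.05, and DESeq2 called 1 astrocyte marker and limma-voom 0), and 1 of 15 oligodendrocyte markers was, with a negative difference. Without the 4 libraries, edgeR called 4 astrocyte markers and 1 of the endothelial, pericyte and fibroblast list, all negative. In replicates 4 and above it called 9 astrocyte markers negative and 1 positive, 2 of the endothelial, pericyte and fibroblast list and 3 of 14 oligodendrocyte markers, all of these negative, and 0 of 15 microglial markers (0 at an unadjusted p below 0.05). Of all 14827 genes tested there, 1539 were called positive and 1793 negative. Over the whole groups, which does not show the split within the Rfx2 line given above, oligodendrocyte markers summed to 328.4 to 774.4 CPM in Rfx2 knockouts against 425.3 to 709.7 CPM, and to 652.9 to 977.3 CPM in Rfx3 knockouts against 579.5 to 842.2 CPM. Microglial markers summed to 693.1 to 2050 CPM in Rfx2 knockouts and 682.0 to 1970 CPM in their wild types, and to 163.8 to 568.2 CPM and 146.3 to 807.4 CPM in the Rfx3 line. Of 30 ribosomal protein genes, 26 were higher without Rfx3 (20.3% of all genes were) and 2 without Rfx2 (7.28% of all genes). None had a called difference by edgeR, DESeq2 or limma-voom (3 had an unadjusted p below 0.05 in edgeR). Without Rfx3_KO 3 the list's median fold change in the Rfx3 line went from 0.41 to 0.24, and its median difference from -0.23 to -0.06.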

How the data were processed

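The values the authors deposited are raw counts for Ensembl gene IDs, with a column for each sample and no normalization. Per the submitters' processing notes, the tools were CASAVA 1.8.2, STAR 2.4 and featureCounts 1.4.6 on GRCm38; their settings and the use of strand are not stated in those notes, so reads of overlapping antisense genes cannot be told apart. Of 21647 genes, 21583 matched GENCODE M21, the source of symbols and positions. The 26 libraries of the Rfx2 and Rfx3 lines (23.1 to 53.4 M counts) entered 1 fit in edgeR 4.0.16 (R 4.3.3) with a coefficient per group, TMM scaling and filterByExpr (minimum count 10, minimum total 15), which kept 14668 genes.

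The difference of effects, (Rfx2 knockout minus wild type) minus (Rfx3 knockout minus wild type), and each effect alone were tested with edgeR's quasi-likelihood F test, two-sided. A call is a Benjamini-Hochberg adjusted p below 0.05 over all 14668 genes; standard errors and 95% intervals come from that test. CPM are TMM-scaled. On data simulated for the difference with 14668 genes, 49% of 100 genes changed by 0.5 (log2) and 87% of 100 changed by 1 were recovered, with 9 unchanged genes called. Changed genes there averaged a log2 CPM of 1 or more, and all groups shared 1 starting level and spread per gene. These data have unequal wild types and uneven libraries, so the figures need not hold for them.

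The genes, 39 lists and tests were chosen with earlier results of these data known. Genes were named by rule: the targeted genes and regulators, the 10 largest differences in each direction among called genes whose log2 CPM averaged 1 or more, the 5 with the smallest p in each class and among similar effects, and up to 3 per list. Only part of them are described. Genes named outside the rule are Mapk10, Sgsm1, Fdft1, Msmo1, Nsdhl, Insig1, Ift57 and Tctn3, chosen after their values were seen.

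No label says that replicates came from separate embryos or cultures, so p-values measure only the spread between samples, which may be technical. All 73 replicate pairs differed by more than counting error (chi-squared over its degrees of freedom between 3.65 and 179). Deviations of same-numbered knockout and wild-type samples had correlations from 0.143 to 0.596 over 6 pairs in the Rfx2 line, and from -0.345 to 0.204 in the Rfx3 line. In the Rfx2 line, knockouts 3, 5 and 6 correlated more with a wild type of another number (0.638, 0.253 and 0.458, against 0.143, 0.241 and 0.417). The main fit, which gave the calls, had no term for pairs. The replicate block took numbers as pairs in both lines, and a further block did so in the Rfx2 line only. Whether numbers mark pairs is not settled by these values. Alternatives were a replicate block, RLE scaling, no or a stricter low-count filter, a fit of all 34 samples, replicates 1 to 3 or 4 and above, a term for Y-linked counts, limma-voom (limma 3.58.1), DESeq2 1.42.0, each line alone and each library left out. Leaving out 4 libraries, and a block in the Rfx2 line only, were added after seeing the data. Figures used matplotlib 3.10.9.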

Additional observations from a re-analysis of the deposited data

Results flagged for a closer look

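Among the genes named, 380 groups of 6 or 8 libraries were checked for a library far from the rest, and 26 (6.84%) had one, where chance flags about 1 in 20. Rfx3_KO 3 was far below the other Rfx3 knockouts for Celsr1 (50.41 CPM), Daam1 (63.04), Map2 (305.8), Mapk10 (79.84) and Khsrp (106.4), and above them for Col9a3 (18.45). Rfx3_WT 6 was far above the other wild types for Fgf14 (15.41), Efcab1 (75.27), Adcyap1r1 (51.56), Ccdc184 (7.601) and Ivns1abp (514.0), and below them for Srxn1 (48.69). Rfx2_WT 5 was high for Vangl2 (145.5) and Mboat7 (222.9) and low for Nes (595.0).

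Single genes stood out elsewhere. Among Rfx2 libraries these were Spag17 (11.14) in Rfx2_KO 2, Cdk5rap2 (319.7) and Abcc12 (56.90) in Rfx2_KO 4, Mia (18.78) in Rfx2_KO 5, Tm7sf2 (14.66) in Rfx2_KO 6 and Sgsm1 (11.65) in Rfx2_WT 1. Among Rfx3 libraries they were Sphkap (0.2172) in Rfx3_KO 2, Vars (103.2) in Rfx3_KO 4, Paqr6 (4.268) in Rfx3_WT 3, Spag16 (26.08) in Rfx3_WT 4 and Mapk10 (124.6) in Rfx3_WT 5.

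The test of the difference itself called 566 genes whose knockout effects were unequal between the lines, and 75 of them were called in opposite directions.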

How the results depend on the processing

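The numbers of samples and the spread between Rfx3 knockouts limit the calls, and genes near 1 CPM rest on the fewest reads. The main fit had no term for pairs. Replicate numbers were taken as pairs in both lines by the replicate block, and in 1 line by the block in the Rfx2 line only. In the Rfx2 line, 3 of 6 knockouts correlated more with another number. In the Rfx3 line, correlations of same-numbered samples ran from -0.345 to 0.204. All 566 called differences kept their sign in the 39 alternatives, wherever the gene was tested. These fits reuse the libraries from which the 566 were chosen, so kept signs are no independent support. Of the 566, 25 stayed called with replicates 1 to 3, 214 with the replicate block and 295 by limma-voom. Of 79 named genes with a called difference, 65 stayed called in every fit without 1 library, 67 without the 4 libraries, 55 with a replicate block and 59 with the block in the Rfx2 line only, 74 with RLE scaling, 62 by limma-voom, and 15 with replicates 1 to 3. In what follows, genes whose effects differ are given as total, Rfx2 only, Rfx3 only, both unequal and opposite. The cause of each shift was not tested.

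With the replicate block the counts were 227, 55, 122, 7 and 43, with 570 similar effects. With the block in the Rfx2 line only they were 331 in total, 180 of Rfx3 only, 11 of both and 48 opposite, with 572 similar. With replicates 1 to 3 they were 28, 14, 7, 1 and 6, with 35 similar, and 1368 genes changed in Rfx2 knockouts, 327 in Rfx3 knockouts and 3593 between wild types. With replicates 4 and above they were 3332, 417, 1972, 639 and 213, with 1388 similar. By limma-voom there were 315, with 148 of Rfx3 only, and 4746 and 3338 changed in the Rfx2 and Rfx3 lines. With each line fitted alone there were 947, with 270 of Rfx2 only and 72 of both, and 4601 and 3327 changed. DESeq2 gave 902, with 220, 522 and 58 of the first 3 classes. Without the 4 libraries there were 250 of Rfx2 only, 87 of both, 2267 similar and 5562 changed in Rfx2 knockouts. An interval bound of 0.3 left 427 similar.

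Leaving out 1 library at a time, the total ran from 399 to 938, Rfx2 only from 100 to 211, Rfx3 only from 203 to 614, both unequal from 13 to 61, opposite from 55 to 105 and similar from 692 to 1822. Genes changed in Rfx2 knockouts ran from 2456 to 4633, in Rfx3 knockouts from 4451 to 6402, and between wild types from 6036 to 8307.

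Among the genes named, signs changed for some whose difference was not called over all replicates. With replicates 4 and above the difference became 0.4819 for Foxj1 (edgeR adjusted p = 0.0128), 0.9757 for Mcidas (0.042) and 0.9600 for Ccno (0.0255), all 3 called there. It became 0.01989 for Ivns1abp, 0.06788 for Asphd2 and 0.05906 for Csdc2. With replicates 1 to 3 it became 0.1688 for Creb3l1, 0.1410 for Rcan1, -0.293 for Ift57 and -0.3229 for Tctn3. Without the 4 libraries it became -0.01642 for Mr1, 0.06961 for Asphd2, 0.08364 for Csdc2 and -0.04278 for Tctn3. Foxj1 became 0.008779 with the replicate block. Without 1 library at a time the difference ran from -0.2088 to 0.00274 for Foxj1, -0.08802 to 0.01827 for Asphd2, -0.07286 to 0.007098 for Csdc2, -0.02403 to 0.136 for Ift57 and -0.0156 to 0.1437 for Tctn3.

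With the block in the Rfx2 line only, where numbers were taken as pairs, the calls lost among named genes were Rfx2 (edgeR adjusted p = 0.117), Daam1 (0.0758), Fam183b (0.0851), Dnah7c (0.0836), Bbs10 (0.114), Cdk5rap2 (0.14), Sema7a (0.0746), Scrg1 (0.109), Igfbpl1 (0.112), Ace (0.0768), Fdft1 (0.118), Tm7sf2 (0.0582), Msmo1 (0.0784), Insig1 (0.102), Adamts3 (0.0719), Fmo1 (0.122), Tubb4a (0.12), Itga2b (0.0673), Dnaja4 (0.0541) and Vars (0.08).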
